A study of Mus musculus with 6 samples.

Results

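The cells described here were keratinocytes that carried transcripts of the interferon response. They were chosen by raw counts of 5 interferon-stimulated genes, Cxcl10, Ifit1, Ifit3, Rsad2 and Isg15. A barcode qualified with at least 6 unique molecular identifiers (UMIs, each 1 counted transcript molecule) summed over these genes and at least 100 per 10000 UMIs of Krt5, Krt14, Krt1 and Krt10. In all, 301 barcodes qualified, out of 37036 keratinocytes by the same keratin limit and 61031 deposited barcodes. The skin came from wildtype male FVB mice aged p55 to p57, whose dorsal hair was removed by shaving and waxing (depilation) to start a new hair cycle. Skin was taken at 0 h, 4 h and 16 h and then at 2 d, 4 d and 6 d, and each of these 6 time points was 1 library of cells from 2 mice, mixed in equal numbers before 10x 3′ capture. Cells carry no mark of the mouse they came from, so time points were not tested against each other.

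Interferons are secreted alarm proteins of 3 kinds. Each binds its own receptor, and the signal of type I and type III interferons ends at the interferon-stimulated response element (ISRE) of target genes. IFN-γ is the type II interferon. The response includes antiviral effectors, guanylate binding proteins and other GTPases, antigen presentation genes and the chemokines CXCL9 and CXCL10, which attract T cells. Cxcl10 is also a target of NF-κB, the inflammatory transcription factor that induces its own inhibitor Nfkbia. In skin, keratinocytes both answer interferons and make interferon kappa (Ifnk).

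The libraries held 7307, 7960, 9534, 11591, 13878 and 10761 barcodes, and 72634390 to 112370376 UMIs each. Interferon keratinocytes had more UMIs per cell than the other keratinocytes of their library. In time order, their medians were 10761, 14780, 14444, 10894, 9325.5 and 12506 UMIs, against 9156.5, 9042, 11309, 8407, 6365 and 7546.5 UMIs in the others. A raw threshold is reached more easily by a deep cell. The 4 h library stood apart with 4 members, of which 3 also had at least 2 UMIs of leukocyte markers, and its sum was left out of the gene tests. Of 60599 distinct barcode sequences, 430 occurred in more than 1 library, 3 members among them.

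The share of interferon keratinocytes among keratinocytes was highest at 6 d and lowest at 4 h. It was 1.27% at 0 h (67 of 5261 cells, exact Clopper-Pearson 95% interval 0.988% to 1.61%) and 0.0651% at 4 h (4 of 6141, 0.0178% to 0.167%). It was 0.386% at 16 h (29 of 7514, 0.259% to 0.554%), 0.966% at 2 d (64 of 6628, 0.744% to 1.23%), 0.320% at 4 d (18 of 5621, 0.190% to 0.506%) and 2.03% at 6 d (119 of 5871, 1.68% to 2.42%). These intervals cover counting error only. The interval of 6 d lay above the other 5 and that of 4 h below them, while 0 h overlapped 2 d and 16 h overlapped 4 d. After each cell was thinned to 3000 UMIs and called with at least 2 UMIs of the 5 genes, the shares were 1.42%, 0.0670%, 0.409%, 1.14%, 0.666% and 2.85%, and 4 d then stood above 16 h. Without Cxcl10 among the genes, the share at 0 h was 0.361% and that at 6 d 1.48%, and 2 d (0.739%) stood above 0 h.

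**Figure D1:**
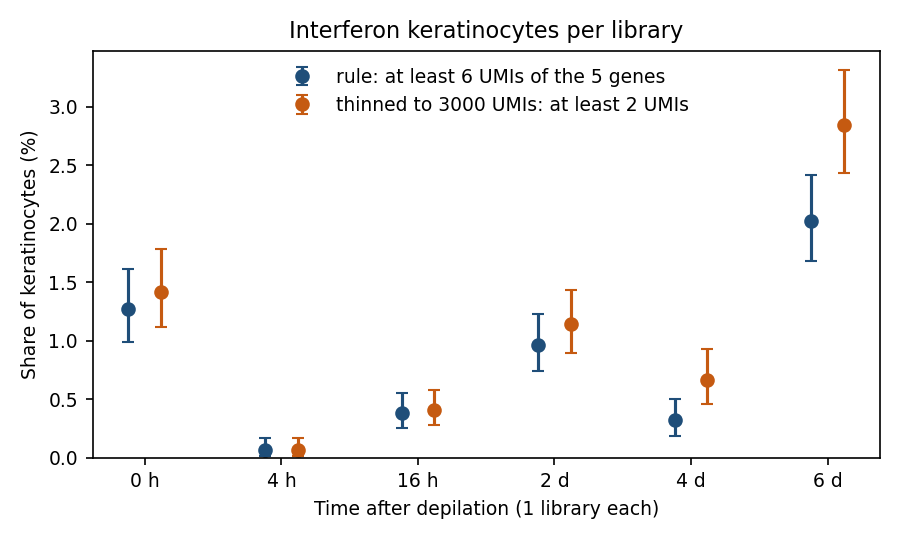
Share of keratinocytes (%, y axis) in the library of each time after depilation (x axis), by the rule (blue) and after thinning each cell to 3000 UMIs (orange). Bars are exact 95% intervals for counting error in 1 library each; 6 d is highest (2.03% by the rule) and 4 h lowest (0.0651%) under both.

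The threshold cut through a continuous range. Of all keratinocytes, 33528 (90.5%) had 0 UMIs of the 5 genes, 108 had 4, 96 had 5, 40 had 6 and 51 had 7. At the keratin limit, 17 barcodes with enough interferon UMIs lay between 90 and 100 keratin UMIs per 10000 and 14 members lay between 100 and 110. Most members did not carry the full set of marker genes: 156 of 301 had UMIs of 1 of the 5 genes, 106 of 2, 29 of 3, 7 of 4 and 3 of all 5.

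Isg15, a ubiquitin-like protein attached to other proteins during the response, and Cxcl10 made up most of the qualifying UMIs. These values chose the cells and are descriptive. In the summed interferon keratinocytes Isg15 stood at 177, 739, 683, 569, 408 and 607 CPM in time order (CPM, UMIs of the gene per 1000000 UMIs of the sum). Cxcl10 stood at 526, 0, 356, 499, 1162 and 299 CPM. Cxcl10 thus led at 0 h and 4 d, where it gave 74.1% and 72.1% of the 5-gene UMIs. Isg15 led in the other libraries, with 97.8% at 4 h and 61.2% at 6 d. Of the Cxcl10 UMIs of members, 122 of 196 at 16 h, 161 of 519 at 2 d and 95 of 259 at 4 d lay in 1 cell each.

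Ifit1, which binds foreign RNA, was detected in 51.6% of members at 2 d, in 35.3% at 6 d, in 34.5% at 16 h and in 4.48% at 0 h. Rsad2 (viperin, an antiviral enzyme) stood at 1.63, 12.7, 28.8 and 11.8 CPM at 0 h, 16 h, 2 d and 6 d, and 0 UMIs were counted at 4 h and 4 d. Ifit3 was nearly absent, with 0 UMIs at 0 h, 4 h and 4 d and 8, 2 and 5 UMIs at 16 h, 2 d and 6 d. Its near-identical copy Ifit3b may share reads with it, which was not tested, so the value of Ifit3 is uncertain. Among the other keratinocytes, Isg15 was detected in 3.57% (4 h) to 13.3% (6 d) and Cxcl10 in 0.212% (4 h) to 3.89% (0 h) of cells. How much of that was free RNA was not tested.

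The start regions of Cxcl10, Isg15, Ifit1, Gbp2 and Nfkbia are shown as examples that differ in the elements that interferon and NF-κB act through. RefSeq promoters (GRCm38.p6, 250 bases before to 50 after the start) were searched on both strands for the core of the ISRE, GAAA followed after any 2 bases by GAAA, and for the NF-κB motif. Capitals mark the matches, and each stretch is printed 5′ to 3′ on the strand of the gene.
Cxcl10: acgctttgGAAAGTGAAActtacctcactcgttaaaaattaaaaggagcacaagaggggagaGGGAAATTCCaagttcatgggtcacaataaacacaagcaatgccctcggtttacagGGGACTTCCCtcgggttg
Isg15: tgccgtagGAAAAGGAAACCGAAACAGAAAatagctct
Ifit1: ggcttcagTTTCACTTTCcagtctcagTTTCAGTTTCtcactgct
Gbp2: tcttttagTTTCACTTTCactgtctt
Nfkbia: actggcttGGAAATTCCCcgcgcctg

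The Cxcl10 stretch (chr5:92348975-92349110, minus strand) held 1 ISRE match starting 213 bases before the start site and 2 NF-κB matches, 159 and 103 bases before it. Isg15 (chr4:156200867-156200904, minus strand) held 3 overlapping ISRE matches, and Ifit1 (chr19:34640777-34640821, plus strand) held 2. Gbp2 (chr3:142620596-142620621, plus strand) held 1 ISRE match, and Nfkbia (chr12:55492659-55492684, minus strand) 1 NF-κB match. Of 24834 promoters, 833 (3.35%) held the ISRE letters and 1205 (4.85%) the NF-κB motif. All 5 marker genes held an ISRE match. Among them, the NF-κB motif was found in the Cxcl10 promoter. Genes not printed did not all divide this way. Bst2 held 1 NF-κB match and 2 ISRE matches, and Icam1, Cxcl9, Ifi44, Oasl2 and Irf7 held neither motif. A match is a description of these letters, not a binding site.

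The members fell into unlike kinds when 80 other interferon genes were read, the antiviral effectors and interferon-inducible GTPases listed for the tests. This split was made after the values were seen and was not tested. A member was called panel high when its summed level of these genes lay above the 99th percentile of keratinocytes of its library with 0 UMIs of the 5 rule genes. By this limit 6 of 67 members (8.96%) were panel high at 0 h, 1 of 4 at 4 h and 11 of 29 (37.9%) at 16 h. In the later libraries 38 of 64 (59.4%) were at 2 d, 8 of 18 (44.4%) at 4 d and 40 of 119 (33.6%) at 6 d. Among the other keratinocytes it was 1.17% to 2.21%. The label of interferon response cells was therefore borne out by further interferon genes in a minority of members in 5 of the libraries and in most members at 2 d.

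By leading gene (at least 50% of the 5-gene UMIs), 98 members were Cxcl10-led and panel low, 19 Cxcl10-led and panel high, 99 Isg15-led and panel low, and 80 Isg15-led and panel high. The remaining 5 were led by neither gene and were panel high. At 0 h, 44 of 67 members were Cxcl10-led and panel low, and none was Isg15-led and panel high. At 2 d, 30 of 64 were Isg15-led and panel high. At 6 d, 48 of 119 were Isg15-led and panel low and 35 were Isg15-led and panel high. Of the panel values, 2, 0, 2, 6, 2 and 10 members in time order lay within 10% of the limit.

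**Figure D2:**
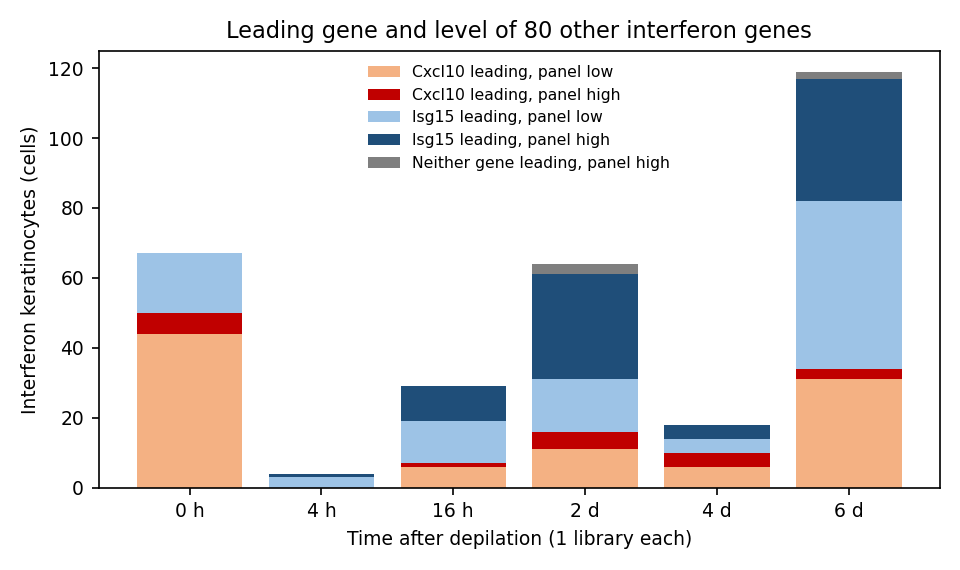
Number of interferon keratinocytes (y axis) in the library of each time after depilation (x axis), stacked by leading gene and by the level of 80 other interferon genes. Cxcl10-led, panel low cells (light orange) are 44 of 67 at 0 h, and Isg15-led, panel high cells (dark blue) are 30 of 64 at 2 d.

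Cxcl10-led, panel high cells were few (6, 0, 1, 5, 4 and 3 in time order) and their summed levels rest on few cells. Cxcl9, the chemokine partner of Cxcl10, stood in them at 80.9, 223, 2219, 1132 and 1774 CPM in the 5 libraries other than 4 h, in time order. Gbp2, a guanylate binding protein, stood in the same libraries at 679.8, 802, 1883, 2015 and 1155 CPM. At 2 d and 4 d each of these genes was counted in 4 cells, of 5 and of 4. At 6 d, however, the 43 Cxcl9 UMIs and the 28 Gbp2 UMIs were each in 1 of 3 cells, at 0 h Cxcl9 was in 1 and Gbp2 in 3 of 6 cells, and 16 h was a single cell. In Isg15-led, panel high cells Cxcl9 was at 0 to 47.4 CPM and Gbp2 at 0 to 92.3 CPM, below the Cxcl10-led, panel high cells of every library that had both. There the antiviral tetherin Bst2 stood at 902, 482, 575 and 481 CPM from 16 h to 6 d, against 44.6, 232, 70.7 and 124 CPM in the Cxcl10-led, panel high cells. The 1 such cell at 4 h had 0 UMIs of Cxcl9, Gbp2 and Bst2.

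Cxcl10-led, panel low cells had higher summed levels of 3 NF-κB targets, Nfkbia, Icam1 and Tnfaip3, than the other keratinocytes in each of the 5 libraries that held them, and a lower level of Il18. Of the 18 genes of that list, 15, 9, 12, 11 and 13 had a higher level than in the other keratinocytes in these libraries in time order, and the rest a lower one. At 0 h, the 44 such cells had Nfkbia at 4413 CPM, Icam1 (an adhesion molecule for leukocytes) at 539.85 CPM and Tnfaip3 (an inhibitor of NF-κB) at 517 CPM. The other keratinocytes of 0 h stood at 3065, 224 and 296 CPM. In the later libraries, in time order, Nfkbia stood at 1808, 1978, 942 and 3001 CPM against 1009, 1404, 838 and 2004 CPM, and Icam1 at 79.0, 297, 170.3 and 334 CPM against 45.1, 87.7, 56.0 and 136 CPM. Tnfaip3 stood at 219, 237, 249.8 and 208 CPM against 122, 166, 106 and 141 CPM. Il18 stood at 10.3 against 39.6 CPM at 0 h and at 32.1 against 46.3 CPM at 6 d. The immediate early gene Fos was also higher in each of these 5 libraries. In time order it stood at 6503, 3405, 3464, 4473 and 3025.5 CPM against 4866, 2919, 2881, 3612 and 2542 CPM. These differences were not tested. The other keratinocytes include granular-marked cells (at least 20 per 10000 UMIs of 9 granular layer markers), and 0 of the 44 cells above were such. Of the 2308 Il18 UMIs in other keratinocytes of 0 h, 1785 lay in granular-marked cells. These stood at 255 CPM for Il18, 33.2 for Icam1, 250 for Tnfaip3, 2598.5 for Nfkbia and 2298 for Fos. The part of layer was not tested. At 4 d the 6 Cxcl10-led, panel low cells also had Cxcl9 at 420.1 CPM, counted in 3 of them.

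Isg15-led, panel low cells of 0 h and 6 d were deep, and many were granular. At 0 h the 17 such cells had a median of 44626 UMIs, 8 had at least 20 per 10000 UMIs of 9 granular layer markers, and loricrin (Lor, the main protein of the cornified envelope) stood at 24162 CPM against 1743 CPM in other keratinocytes. At 6 d the 48 such cells had a median of 24090 UMIs, 24 were granular by the same limit and Lor stood at 15197 against 1519 CPM. In the libraries between, 0 of 3 such cells at 4 h, 1 of 12 at 16 h, 4 of 15 at 2 d and 1 of 4 at 4 d were granular. Their medians there were 15452, 13218, 22477 and 18078 UMIs, above those of all members except at 16 h. The part of depth in their selection was not tested.

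**Figure D3:**
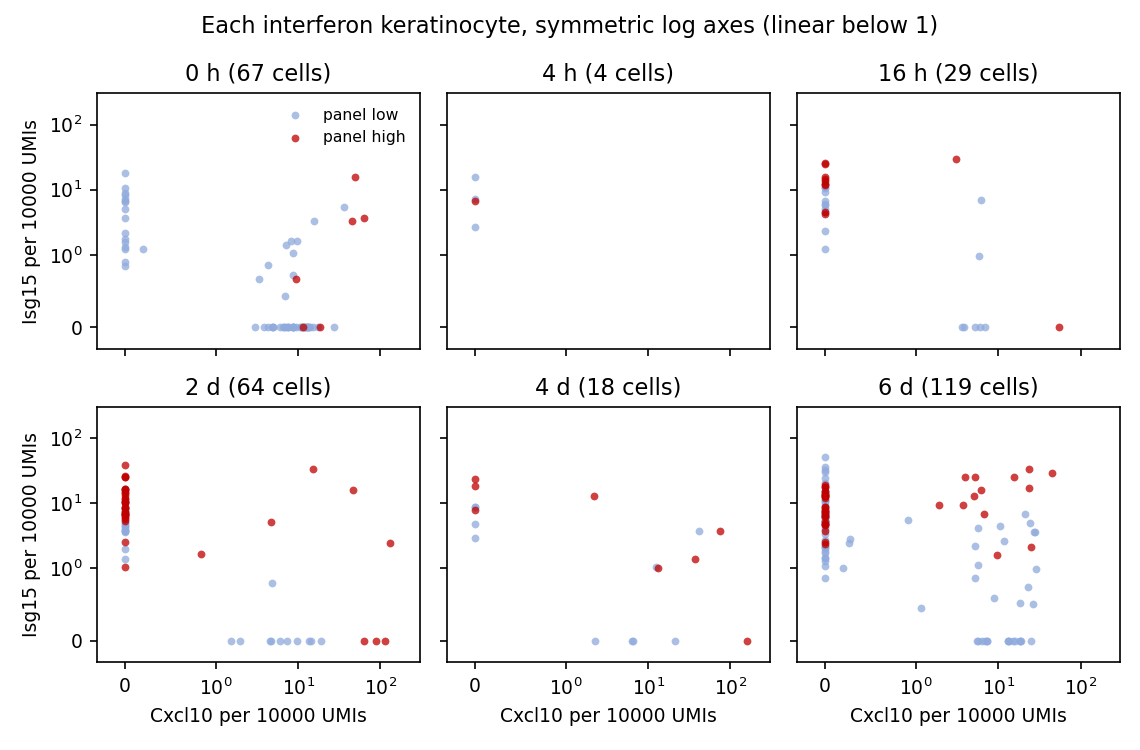
Each point is 1 interferon keratinocyte, with Cxcl10 (x axis) and Isg15 (y axis) per 10000 UMIs of the cell on symmetric log axes, 1 plot per library, red for panel high and blue for panel low. At 0 h most of the 67 cells lie along the Cxcl10 axis in blue, and at 2 d red cells lie along the Isg15 axis.

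Interferon keratinocytes and the other keratinocytes of the same library were then compared over all genes outside the rule. Counts were summed per library and tested with edgeR's quasi-likelihood test with the library as a block, in the 5 libraries with at least 10 members. Of 14094 genes, 305 (2.16%) were higher and 118 (0.837%) were lower at a Benjamini-Hochberg adjusted p under 0.05. The sums mix the kinds of cells above and weight deep cells more. Fewer cells of a kind and less RNA per cell cannot be told apart in them.

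Most interferon-inducible GTPases and antiviral effectors were higher. Of 13 GTPases tested 12 were called higher, with a median log2 fold change of 3.73, and of 53 antiviral effectors 37 were, with a median of 2.40. None of either list was lower, and the median of all genes was -0.07. These counts cover genes that passed the filter on low counts, and a gene high in members alone could pass it. With at least 10 UMIs in every sum, 4 GTPases and 11 antiviral effectors could be tested, and 4 and 7 were called higher, with medians of 4.39 and 1.47. Without Cxcl10 in the rule, 6 of 12 GTPases and 27 of 51 antiviral effectors were called. Gbp2 stood at 35.8, 47.3, 120.1, 265 and 21.7 CPM in interferon keratinocytes of these 5 libraries in time order, as for the genes that follow, and at 2.16, 1.09, 1.28, 4.53 and 2.82 CPM in the others. All 5 values lay above all 5 of the others (log2 fold change 4.97, SE 0.39, edgeR adjusted p = 2.47e-06). Iigp1, a GTPase that attacks the vacuoles of parasites, showed the same separation, at 17.1, 99.96, 97.0, 274 and 23.6 CPM against 0.354 to 1.69 CPM (log2 fold change 6.39, SE 0.51, edgeR adjusted p = 2.67e-06). Gbp3 (log2 fold change 5.15) and Gbp7 (3.73) were also among the largest rises.

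The antiviral gene Ifi44 stood at 1.63, 16.4, 35.5, 4.49 and 17.5 CPM in interferon keratinocytes, and at 0, 0.0708, 0.287, 0.0464 and 0.371 CPM in the others. Its 0 h value rested on 2 UMIs and its 4 d value on 1 (log2 fold change 6.64, SE 0.50, edgeR adjusted p = 2.33e-06). Oasl2, of the oligoadenylate synthetase family, rose by a log2 fold change of 4.71 (SE 0.43), and Ddx60, a helicase that aids RNA sensing, by 4.40 (SE 0.45). The interferon-induced genes Slfn2, Phf11d and Sp100 had log2 fold changes of 3.85, 3.81 and 3.62. Oasl1 (6.96) and Trim30a (5.57) had large log2 fold changes on at most 15 UMIs in members of any library, and were higher in 2 and 4 of the 5 libraries.

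**Figure D4:**
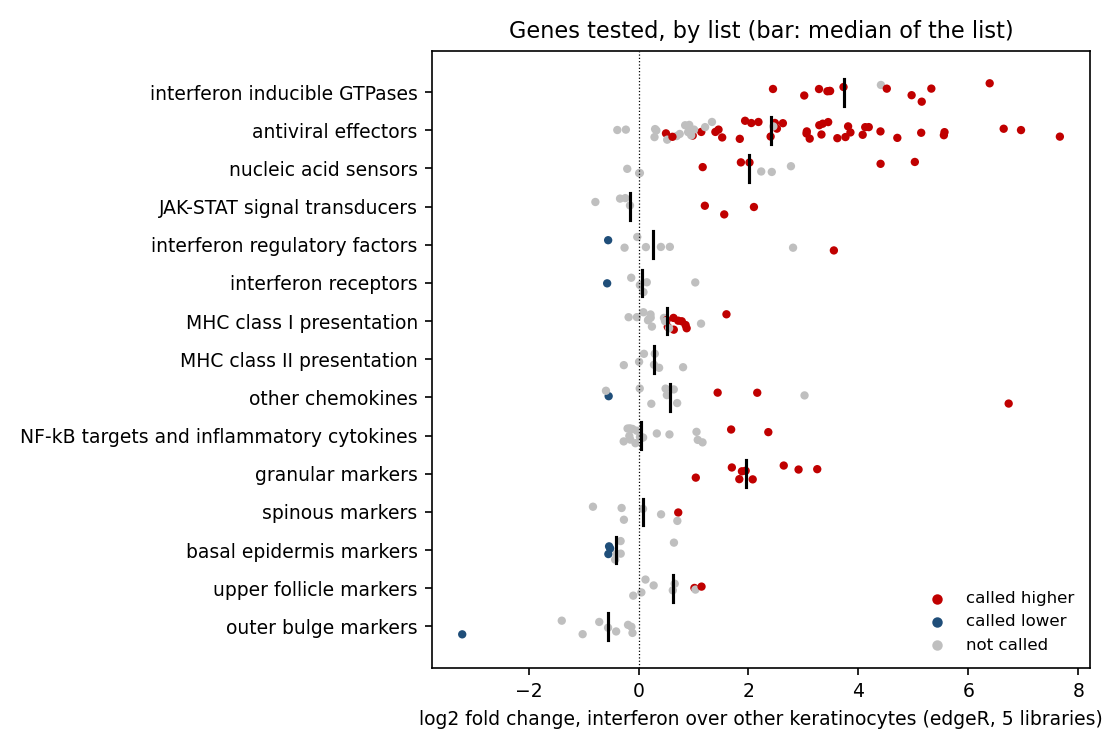
Log2 fold change of interferon over other keratinocytes (x axis, edgeR, 5 libraries) for each gene tested, by gene list (y axis), red where called higher, blue where called lower and grey where not called. The bar is the median of a list, 3.73 for the GTPases, 2.40 for the antiviral effectors, 1.95 for the granular markers and -0.55 for the outer bulge markers.

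The signalling genes of the pathway moved in part. Of 7 JAK-STAT genes 3 were higher and none lower, with a median log2 fold change of -0.16 and a largest of 2.10. Stat2 (log2 fold change 1.56, SE 0.30) and Irf9 (1.21, SE 0.21), a pair that acts at the ISRE, rose, and Jak1, a receptor kinase, had a log2 fold change of -0.34 that was not called. Of 8 interferon regulatory factors 1 was higher and 1 lower, with a median of 0.27. Irf7, the amplifier of type I interferon production, was higher at 21.1, 85.4, 62.4, 35.9 and 70.8 CPM against 4.92, 3.81, 2.35, 3.71 and 8.56 CPM (log2 fold change 3.55, SE 0.30, edgeR adjusted p = 3.17e-06). Irf1 (log2 fold change 0.41) and Irf2 (0.13) were not called. Irf1 was called without granular-marked cells (0.69, edgeR adjusted p = 0.00672).

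Sensors of foreign nucleic acid were higher in 5 of 11 tested, and the median log2 fold change of the 11 was 2.02. Those called higher included Zbp1 (log2 fold change 5.03), Dhx58 (4.40), Ifih1 (2.02) and Ddx58 (1.86). Of 6 negative regulators, Usp18, which removes ISG15 from proteins, rose (log2 fold change 1.79, SE 0.30) and Socs3 fell (-0.50, SE 0.10). Usp18 lost its call without the library block. Socs3 lost its call in 8 alternatives, among them those without granular-marked cells, without leukocyte-marked cells and without 6 d. Socs1 (0.59) and Ptpn2 (-0.24) were not called, though Socs1 was called higher with keratins at 50 per 10000 (0.70) and without granular-marked cells (0.78).

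Of 6 interferon receptor genes, none was called higher and 1 was called lower. Ifngr1, the ligand-binding chain for IFN-γ, stood at 107, 63.6, 46.1, 67.3 and 37.8 CPM against 134, 102, 67.3, 97.9 and 61.6 CPM, lower within each of the 5 libraries (log2 fold change -0.57, SE 0.13, edgeR adjusted p = 0.0172). The ranges of members and others overlapped, and the call was lost in 9 alternatives, among them those without the 2 d or the 6 d library. Il10rb, shared by the type III receptor, was higher in 5 of 5 libraries but missed the threshold (log2 fold change 1.03, SE 0.27, edgeR adjusted p = 0.0538), which it passed with other size factors (0.0319) and in DESeq2 (0.0212). Ifnar1, Ifnar2, Ifngr2 and Ifnlr1 had log2 fold changes of 0.02, 0.15, -0.13 and 0.09 and were not called.

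Interferon transcripts themselves were scarce. Ifnk gave 509 UMIs in the 55177 barcodes within the limits on genes and mitochondrial UMIs, 4 of them in interferon keratinocytes and 353 in other keratinocytes (log2 fold change -0.24, not called). Ifng, made by lymphocytes, gave 72 UMIs, of which 58 lay in 30 of 2901 barcodes outside the keratinocytes with at least 2 UMIs of CD3 or T cell receptor genes. In keratinocytes it was 0 of 37036 cells, which allows a share of up to 0.00810% with a UMI, and in members 0 of 301, which allows up to 0.997%. All 4 UMIs of Ifnl2, a type III interferon, lay in 2 interferon keratinocytes, 1 at 2 d and 1 at 6 d. Ifnz gave 8 UMIs, Ifnb1 2, Ifna13 2 and Ifnl3 1, none in members, and 0 were counted for the other 7 ligands listed.

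Of 21 genes of class I antigen presentation 9 were higher and none lower, with a median log2 fold change of 0.51. The calls fell to 1 of 21 without Cxcl10 in the rule and without the library block, to 3 of 20 with keratins at 200 per 10000 and to 5 of 21 without the 4 d library, and were 6 of 21 without 2 d or 6 d. Psmb10, a subunit of the immunoproteasome that cuts peptides, stood at 30.9, 81.8, 68.2, 126 and 47.7 CPM against 18.4, 22.2, 16.4, 24.96 and 19.9 CPM, and the groups did not overlap (log2 fold change 1.60, SE 0.18, edgeR adjusted p = 4.62e-05). The peptide transporter subunit Tap2 (0.88, SE 0.15) and the loading factors Tapbp (0.86, SE 0.16) and Tapbpl (0.79, SE 0.18) rose less. Of 7 class II genes none was called, with Cd74 at 4.88, 9.09, 123, 62.8 and 151 CPM in members and 14.7, 65.7, 84.3, 70.7 and 51.9 CPM in others.

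**Figure D5:**
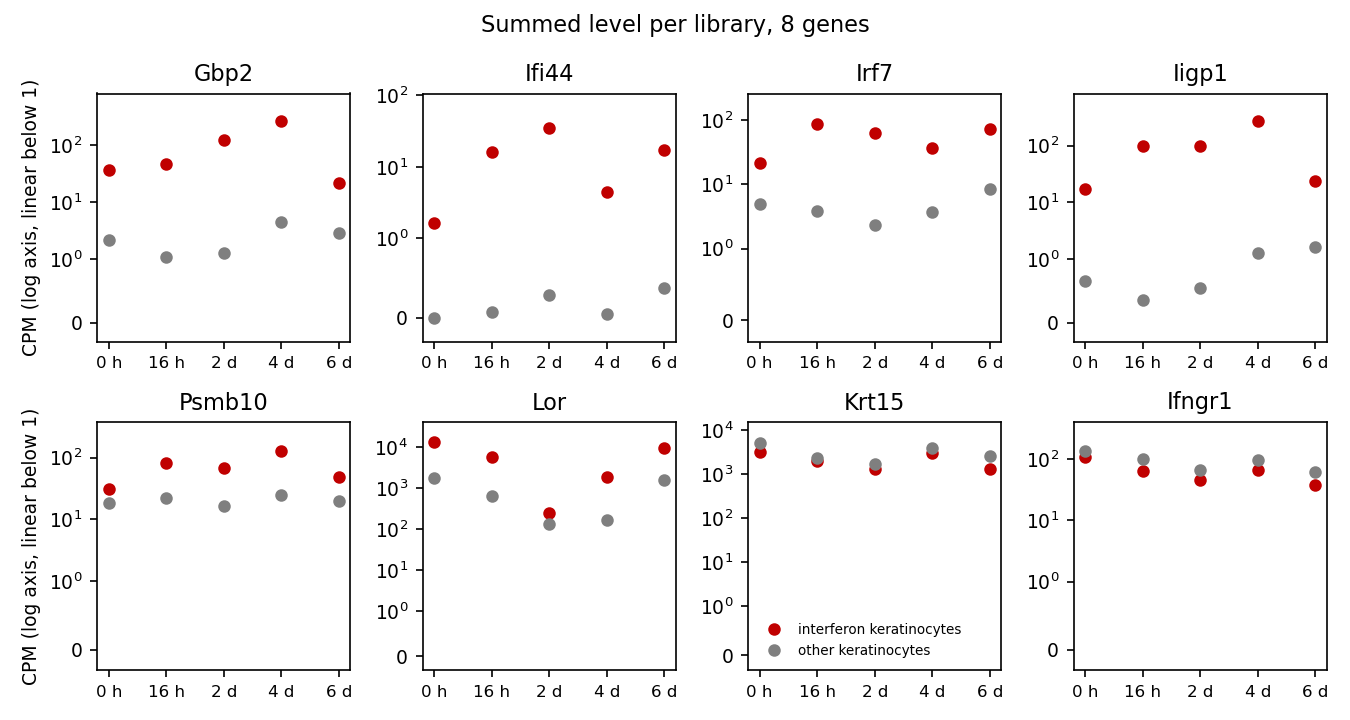
Summed level (CPM, y axis, log scale that is linear below 1) of 8 genes in interferon keratinocytes (red) and other keratinocytes (grey) of the 5 libraries tested (x axis), 1 sum per library. Gbp2, Ifi44, Irf7, Iigp1 and Psmb10 lie higher in red at every time, Lor is higher by the smallest ratio at 2 d (247 against 135 CPM), and Krt15 and Ifngr1 lie lower in red.

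Chemokines other than Cxcl10 rose in 3 of 12 tested. Cxcl9 stood at 4.07, 10.9, 106, 309.6 and 34.9 CPM in members against 0.343, 0.0202, 0.259, 1.32 and 1.11 CPM in others (log2 fold change 6.73, SE 0.57, edgeR adjusted p = 3.17e-06). It was counted in 1, 2, 8, 7 and 14 members. Ccl2, which attracts monocytes (log2 fold change 2.16), and Ccl20, which attracts CCR6-bearing cells (1.44), were higher in 4 of 5 libraries. Of the Ccl2 UMIs of members, 44 of 56 at 16 h and 19 of 22 at 4 d lay in 1 cell each. Cxcl14, a chemokine of resting epithelium, fell (-0.54, SE 0.12). Ccl2 and Ccl20 lost their calls in 4 and 5 alternatives, both of them without Cxcl10 in the rule, in DESeq2 and without the library block. Cxcl14 lost its call in 8, among them DESeq2, cells of 5000 to 20000 UMIs and the fit without 6 d.

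NF-κB targets were higher in 2 of 18 tested, both cytokines of the interleukin-1 family. Il18 stood at 334, 213, 12.5, 85.3 and 262 CPM against 39.6, 31.1, 13.6, 14.4 and 46.3 CPM, below the others at 2 d (log2 fold change 2.36, edgeR adjusted p = 1.05e-04). Neither Il18 nor Il1a was called without granular-marked cells. Il18 was also not called with keratins at 200 per 10000 (0.756), in cells of 5000 to 20000 UMIs (1.215) or without leukocyte-marked cells (1.57). Nfkbia (0.03), Tnfaip3 (-0.03) and Icam1 (0.56) were not called in the sums, which pool the Cxcl10-led cells with the rest. Icam1 was called higher in 3 alternatives, which were cells of 5000 to 20000 UMIs (0.70), without granular-marked cells (0.80) and without 6 d (0.82).

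Of the cell death genes, which include the BCL-2 family that the study turned on, 3 of 22 were higher. They were Tnfsf10 (TRAIL, a death ligand; log2 fold change 2.996, SE 0.44), Mlkl (the executor of necroptosis; 2.47, SE 0.54) and Bak1 (0.82, SE 0.19). Bak1, the pore-forming death protein, stood at 17.1, 30.9, 18.3, 17.9 and 22.2 CPM against 8.62, 14.2, 10.2, 16.2 and 13.3 CPM, higher in 5 of 5 libraries (edgeR adjusted p = 0.0275). Its call was lost in 8 alternatives, among them those without the 0 h or the 6 d library and without leukocyte-marked cells (edgeR adjusted p = 0.0576 there). Mcl1, which restrains BAK, was not called (log2 fold change -0.33, SE 0.12, edgeR adjusted p = 0.158), though it was called lower in cells of 5000 to 20000 UMIs (-0.51, edgeR adjusted p = 0.0149) and without granular-marked cells (-0.34, 0.0427). Of 9 P53 targets none was higher and Trp53inp1 was lower (-0.70), with Cdkn1a at -0.31 and Mdm2 at -0.45 not called. Trp53inp1 lost its call in 8 alternatives, among them DESeq2 and the fits without the 0 h or the 6 d library. Cdkn1a was called lower in cells of 5000 to 20000 UMIs (-0.58) and without granular-marked cells (-0.56).

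Further listed groups were small, and their calls stand beside shares over all genes tested of 2.16% higher and 0.837% lower. The checkpoint ligand Cd274 (PD-L1) was the 1 of 4 checkpoint genes called, with a log2 fold change of 2.17 (SE 0.38), and lost its call without Cxcl10 in the rule (1.39, edgeR adjusted p = 0.127) and without the library block. Of 14 immediate early genes, 4 fell: Atf3 (-0.47), Fosb (-0.45), Zfp36 (-0.40) and Fos (-0.29). These calls were fragile, and that of Fos was lost in 15 alternatives. In the Cxcl10-led, panel low cells Fos stood above the other keratinocytes instead. Of 12 wound keratins and alarmins, S100a9 (2.39) and Krt6a (0.73) were higher and Krt16 (-0.46) lower. These calls were fragile too. That of S100a9 was lost in 10 alternatives, that of Krt6a in 11 and that of Krt16 in 14. For each of these genes, DESeq2 and the fit without 6 d were among them. At 2 d, 352 of the 386 S100a9 UMIs of members lay in 1 cell, and S100a9 was not called without the 2 d library. None of 10 cell cycle markers was called.

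Among markers of position, the granular layer stood out. All 9 granular markers were called higher, with a median log2 fold change of 1.95, and of 8 basal markers 3 were lower. With keratins at 200 per 10000 none of the 9 granular markers was called (median 0.42), and 3 were with at most 6000 genes, 4 in cells of 5000 to 20000 UMIs and 0 without the library block. Lor stood at 13442, 5632, 247, 1885 and 9497 CPM in members against 1743, 631, 135, 166 and 1519 CPM in others (log2 fold change 2.64). Krt15, a keratin of basal and bulge cells, stood at 3224, 1981, 1309, 3042 and 1327 CPM against 5007, 2356, 1665, 3834 and 2560 CPM (log2 fold change -0.54), and lost its call in cells of 5000 to 20000 UMIs (-0.24, edgeR adjusted p = 0.237) and without the library block. Krtap3-2, a hair shaft protein gene, was among the largest rises (4.19), but at 16 h all 147 UMIs lay in 1 member. It was not called with keratins at 200 per 10000 (1.098), without leukocyte-marked cells (1.846) or in cells of 5000 to 20000 UMIs (2.345).

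The fit was repeated without granular cells. Without keratinocytes that had at least 20 per 10000 UMIs of the granular list, edgeR's test called 289 genes (2.09%) higher and 298 (2.16%) lower. The 9 granular markers defined the cells left out, so their loss of calls there (0 higher, 2 lower, Lor at -0.38) was fixed by the choice. Krtap3-2 (0.28) was not called. The GTPases (13 of 13 higher) and the antiviral effectors (41 of 52) were still mostly called, and 13 of 13 and 50 of 52 had the sign they had with all cells. Gbp2 (5.27) and Irf7 (3.797) were called higher. Of the 305 genes called higher with all cells, 117 were also called there. Leaving out leukocyte-marked cells likewise left 0 of 9 granular markers called and 32 of 48 antiviral effectors higher.

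The difference in share between layers changed sign between the rule and the thinned cells, which differ in both depth and UMI limit. Among suprabasal keratinocytes (more Krt1 and Krt10 than Krt5 and Krt14) it was 1.32%, 0.144%, 0.0715%, 1.20%, 0.445% and 2.50% in time order, and among basal ones 1.26%, 0.0551%, 0.458%, 0.912%, 0.309% and 1.88%. The mean difference was 0.13 percentage points (SD 0.33, n = 6, exact sign-flip permutation test, two-sided, p = 0.375, adjusted p = 0.375). In cells thinned to 3000 UMIs and called with at least 2, the difference turned to -0.52 points and was negative in 6 of 6 libraries (exact permutation p = 0.03125, the smallest that 6 libraries allow, adjusted p = 0.0938). Suprabasal cells were deeper in every library, with medians of 11612 against 8678 UMIs at 0 h and 10194 against 6942 at 6 d.

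Follicle gates were read in the same way. The upper follicle gate took at least 5 per 10000 UMIs of Krt79, Cst6, Defb6 and Atp6v1c2. Inside it, interferon keratinocytes made up 2.68%, 0.238%, 0.314%, 1.18%, 0.266% and 3.17% of cells in time order, and outside it 1.18%, 0.0524%, 0.401%, 0.892%, 0.347% and 1.53%. The exact intervals of the gate and the rest did not overlap at 6 d (2.41% to 4.10% against 1.18% to 1.96%). The mean difference was 0.57 points (SD 0.79, n = 6, exact permutation p = 0.125, adjusted p = 0.328), and it was -0.08 points in thinned cells. It was 0.279 points with the gate at 3 per 10000. With the gate at 10 per 10000 it was 1.01 points and positive in 5 of 6 libraries (exact permutation p = 0.09375, adjusted p = 0.09375). Of 9 upper follicle markers, Defb6, an antimicrobial peptide, and Teddm3 were higher (log2 fold changes 1.02 and 1.15), but lost their calls in 5 and 8 alternatives, among them cells of 5000 to 20000 UMIs (0.0569 and 0.74). The others were not called, with Atp6v1c2 at 1.03 and Cst6 at 0.62, which passed in 7 and 3 alternatives. Of the 56 members in this gate at 6 d, 41 were Isg15-led and panel low. At 0 h all 9 members in the gate were of that kind, and 8 of the 17 cells of that kind were granular. Cst6 stood at 3794 CPM in granular-marked other keratinocytes of 0 h and at 603 CPM in the other keratinocytes as a whole. Krt79 stood at 92.25 and 42.5 CPM there, so granular cells can pass this gate on Cst6.

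The outer bulge gate took at least 5 per 10000 UMIs of Cd34, Postn, Krt24, Lhx2 and Lgr5, genes of the region of the hair follicle stem cells. Inside it, interferon keratinocytes made up 0.463%, 0, 0.120%, 1.07%, 0.401% and 1.35% of cells, and outside it 1.31%, 0.0699%, 0.419%, 0.933%, 0.303% and 2.12%. At 4 h this was 0 of 418 cells, with an exact upper bound of 0.879%. The mean difference was -0.29 points (SD 0.43, n = 6, exact permutation p = 0.219, adjusted p = 0.328). It was -0.14 points in thinned cells and -0.0896 points with the gate at 3 per 10000. With the gate at 10 per 10000 it was -0.53 points and negative in 6 of 6 libraries (exact permutation p = 0.03125, adjusted p = 0.0625). Cd34, the stem cell surface marker of the bulge, had 0 member UMIs in 4 of the 5 libraries tested and 4 UMIs at 6 d, against 2.03 to 12.4 CPM in others (log2 fold change -3.21, SE 0.58, edgeR adjusted p = 0.00403). Lgr5, a receptor of the same stem cells, stood at 0, 3.63, 0, 17.9 and 12.3 CPM against 3.02, 4.72, 5.43, 24.9 and 19.9 CPM and was not called (-1.02, edgeR adjusted p = 0.202). The Cd34 call was lost with the keratin limit at 200 per 10000 (log2 fold change -0.65), without Cxcl10 in the rule (-2.72, edgeR adjusted p = 0.0872) and without the library block.

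Other large falls were Thbs2 (-1.14), Cwh43 (-1.15), Ppp2r2c (-1.23), 9530077C05Rik (-1.20), Serpina11 (-2.56) and Ptgds (-3.61). Thbs2, a matrix protein, stood at 18.7, 40.0, 17.3, 4.49 and 10.9 CPM against 39.1, 72.2, 41.1, 26.5 and 23.5 CPM. Serpina11 and Ptgds were at 0 UMIs in members of 4 libraries, and both lost their call without the 4 d library and in 10 other alternatives.

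Markers of other cell types were measured in the same cells. At least 2 UMIs of leukocyte, T cell or myeloid markers, class II genes and Cd74 left out, were present in 58 of 301 members (19.3%) and in 13.5% of other keratinocytes. The share was higher in members in 5 libraries and lower at 16 h (13.8% against 16.1%), and at 4 h it rested on 3 of 4 members. This mark is a raw count too, which a deep cell reaches more easily, and members were deeper in every library. At 6 d, 17 of the 20 marked members were Isg15-led and panel low, a kind with a median of 24090 UMIs there. The part of depth in this share was not tested. The 4 general leukocyte markers summed to 11.4, 32.9, 40.0, 39.4, 17.9 and 50.5 CPM in members in time order, against 5.42, 10.8, 9.60, 21.7, 20.8 and 13.97 CPM in others. Cd52 led this list in 5 of 6 libraries and was called higher (log2 fold change 1.69), but not without leukocyte-marked cells (0.47). The 9 T cell markers summed to 36.6, 936, 30.9, 199, 22.4 and 80.2 CPM in members against 55.5, 72.7, 57.7, 131, 131 and 48.9 CPM, led by Cd3g at 394 CPM in the 4 cells of 4 h. The defining genes Cd3e, Cd3d and Cd3g were at 0 in members of 16 h and 4 d.

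The 11 Langerhans and myeloid markers summed to 23.6, 131, 125, 236, 98.7 and 299.6 CPM in members against 34.6, 123, 127, 174, 142 and 111 CPM, led by Cd74 at 2 d, 4 d and 6 d. At 16 h the lead was Lyz2, whose 31 UMIs all lay in 1 member. Fibroblast markers summed to 0 to 10.4 CPM, melanocyte markers to 0 to 8.97 CPM and endothelial markers to 0 to 7.27 CPM in members. The part of leukocyte RNA or doublets in the results was not tested beyond the fit without leukocyte-marked cells.

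The ISRE letters were commoner in the promoters of the genes that rose. They were present in 35 of 233 promoters of genes called higher (15.02%), in 1 of 93 of genes called lower (1.08%) and in 307 of 10696 of all genes tested that matched a RefSeq promoter (2.87%). The NF-κB motif was present in 8.58%, 7.53% and 5.22% of the same groups. Of the 15 largest rises, 13 matched a promoter and 4 of these held the ISRE letters, Gbp2, Gbp3, Gbp7 and Ddx60, while none held the NF-κB motif.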

How the data were processed

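Dorsal skin cells of 6 time points, 1 library each, were captured with 10x 3′ chemistry. The authors counted UMIs with Cell Ranger 6.1.2 on mm10 per the submitters' processing notes, and the deposited values were raw UMI counts per gene and barcode. Barcodes with 500 to 7000 detected genes and at most 10% mitochondrial UMIs were kept. No doublet caller was run, and cells of at most 6000 genes and cells without leukocyte UMIs served as alternatives. The members and gene lists were chosen with earlier results of these data known. Counts were summed per library for members and for other keratinocytes and tested with edgeR 4.0.16 (R 4.3.3, TMM size factors, filterByExpr, quasi-likelihood test, library as a block), after a test on simulated data. The 9 rule genes stayed out of the reported calls. DESeq2 1.42.0, other size factors, other filters, other cell limits and leaving out each library were alternatives. Shares were compared with exact sign-flip permutation tests in scipy 1.17.1. CPM was computed from these sums.

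Genes were named by rule: the 15 largest rises and 8 largest falls that held in every library used, up to 4 genes of each pathway list, all interferon ligands and receptors with a UMI, the gate genes and the leading gene of each list of other cell types. Further genes in the text, such as Lor, Krt15 and Teddm3, were named after their values were seen, and a few genes that the rule gave are not reported here. The p-values rest on 5 or 6 libraries of pooled mice.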

Additional observations from a re-analysis of the deposited data

Results flagged for a closer look

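Interferon transcripts also appeared in barcodes outside the comparisons, those below the keratin limit. At 6 d, 161 of 4045 such barcodes had at least 6 UMIs of the 5 genes (3.98%, exact 95% interval 3.40% to 4.63%), above the 1.38% of the 0 h library (23 of 1664, 0.878% to 2.07%). The shares were 0.329%, 0.741%, 1.41% and 0.707% at 4 h, 16 h, 2 d and 4 d. The 161 barcodes carried 3146 UMIs of Isg15 and 862 of Cxcl10. Of them 28 had sebaceous gland markers, 16 inner root sheath or matrix markers and 12 general leukocyte markers, and their median keratin level was 47.9 per 10000 UMIs. The difference between these libraries was not tested, since each time point was 1 library.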

How the results depend on the processing

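The overall share of 0.813% was 1.36% with at least 4 UMIs, 0.435% with at least 10, 0.684% and 0.961% with keratin limits of 200 and 50 per 10000, 0.510% without Cxcl10, 0.722% without granular-marked cells and 1.06% in thinned cells. The settings without Cxcl10, without granular-marked cells and with all 6 libraries were chosen after seeing the data. Genes called higher numbered 100 with keratins at 200, 101 without leukocyte-marked cells, 145 in cells of 5000 to 20000 UMIs and 156 without Cxcl10. They numbered 62 of 3121 tested with at least 10 UMIs in every sum, where the main fit tested 14094, and 38 without the library block. Leaving out 1 library gave 170 (without 6 d) to 467 (without 16 h).

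Genes called lower numbered 201 with at least 10 UMIs, 22 and 231 with keratins at 200 and 50, and 20 without leukocyte-marked cells. They numbered 77 in cells of 5000 to 20000 UMIs, 43 without Cxcl10, 298 without granular-marked cells, 46 in DESeq2 and 65 with RLE size factors. With at least 10 UMIs in every sum 31 of 3121 tested were lower, and 1 gene was without the library block. Leaving out 1 library gave 34 (without 6 d) to 163 (without 16 h), and 76 without 0 h. Of the called genes 72.1% were higher, against 86.0% in DESeq2, 85.3% with RLE size factors and 49.2% without granular-marked cells. The suprabasal and upper follicle differences turned to -0.52 and -0.0796 points in thinned cells. Lor turned to -0.0587 with keratins at 200, -0.29 without leukocyte-marked cells and -0.38 without granular-marked cells. No other of 65 called genes followed changed sign in an alternative that tested it, but several alternatives did not test all 65. Of 43 genes followed and not called, 11 passed in an alternative. The causes of these changes were not tested beyond what each setting removes. Small member sums limit genes of a few UMIs.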

Other observations

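The level of the 80 other interferon genes followed the 5 rule genes unevenly across libraries, as a description without a test. At 2 d it was 13.9 per 10000 UMIs in keratinocytes with 0 rule-gene UMIs, 15.3 with 1 to 2, 23.2 with 3 to 5, 35.7 with 6 to 9, 49.9 with 10 to 19 and 77.7 with 20 or more. At 0 h the same values were 14.6, 14.3, 13.7, 14.2, 17.1 and 33.2. At 6 d they were 13.9, 18.5, 27.5, 28.1, 43.6 and 34.1. These are values of summed cells, which weight deep cells more. The medians over cells in the same order were 14.3, 15.2, 15.7, 16.2, 20.8 and 25.3 at 0 h. At 6 d the medians were 12.6, 16.9, 27.5, 30.8, 36.2 and 39.2, without the drop in the last group. At 2 d and 6 d the rise began below the limit of 6 UMIs. Of the 7 cells at 0 h with 20 or more UMIs, 42.9% were panel high.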
